A study of Mus musculus with 365 samples.

Results

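Id2 is a helix-loop-helix protein without a DNA-binding region. It pairs with the E proteins encoded by Tcf3, Tcf4 and Tcf12 and keeps them from binding E-box sequences in DNA. Innate lymphoid cells, natural killer (NK) cells and some conventional dendritic cells depend on Id2, whereas B cell development and plasmacytoid dendritic cells depend on E proteins. Here, Id2-positive and Id2-negative progenitors were compared among sorted TN (triple negative) cells of mouse bone marrow, after cells with transcript of H2-Aa, a chain of MHC class II, had been set aside. A cell was Id2-positive when it held 25 CPM of Id2 or more (CPM, the reads of a gene scaled by all reads of the cell) and Id2-negative below 25 CPM, and it lacked H2-Aa at an H2-Aa level below 25 CPM. The members were thus chosen by their Id2 and H2-Aa levels. By this rule 56 cells (26.3% of the 213 TN cells) were Id2-positive and 47.9% were Id2-negative, out of 365 cells in the series. Below, a percentage after a number of cells is the share of the Id2-positive or of the Id2-negative cells.

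All cells came from femurs of Flt3Ltg mice, C57BL/6 animals with a Flt3 ligand transgene, pooled from 2 mice per label, and both sides of the comparison share that background. Flt3 ligand acts on early lymphoid and dendritic progenitors and raises their number, so cell proportions are those of these transgenic mice. The cells belong to the EPLM compartment, early progenitors with lymphoid and myeloid potential. The labels name 3 capture chips for TN cells and 3 for Ly6D+ cells. The sources used here do not give the markers of the TN gate, the promoter of the transgene or the age of the mice.

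Id2-positive cells numbered 19, 12 and 25 on TN chips 1, 2 and 3, and Id2-negative cells 37, 36 and 29. Each chip therefore held cells of both sides, and each side's reads were summed per chip. The sums held 14542349, 10208042 and 17447381 reads on the Id2-positive side and 32592153, 28885173 and 22291757 reads on the Id2-negative side. Xist, a transcript of female cells, was at 25 CPM or more on chip 2 alone, in 8 of 12 Id2-positive and 21 of 36 Id2-negative cells, so both sides of a chip shared it. Transcript of Ptprc, the pan-leukocyte surface protein CD45, was detected in 46 (82.1%) Id2-positive and 85 (83.3%) Id2-negative cells. Ly6d, the marker of the other population of the series, was detected in 7 Id2-positive and 17 Id2-negative cells.

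The values that made the split are given as a description. Id2 ran from 25.6 to 10436 CPM in Id2-positive cells with a median of 368 CPM, and 95 Id2-negative cells, all but 7, had no Id2 read at all. The lowest Id2-positive cells stood at 25.6, 28.5 and 29.9 CPM of Id2 and the highest Id2-negative cells at 6.59, 6.86 and 10.5 CPM. No H2-Aa read was found in 50 Id2-positive and 93 Id2-negative cells. The nearest H2-Aa values to the limit were 24.4 CPM inside it and 28.4 CPM outside it. Of the 55 TN cells set aside for H2-Aa, 42 were at 25 CPM of Id2 or more, so 56 of the 98 TN cells with Id2 belong to the present comparison.

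Id2-positive cells carried more transcript of innate lymphoid and NK genes and less of myeloid granule genes than Id2-negative cells on all 3 chips. The chemokine gene Ccl5 and the factors Gata3, Tcf7, Zbtb16, Rora and Tox were higher, and the granule genes Mpo, Ctsg and Elane and the lymphoid enzyme gene Dntt were lower. Of 56 Id2-positive cells, 9 held 2 or more of Tcf7, Gata3, Zbtb16 and Rora. Without such cells on either side, members of the innate lymphoid and NK list, which holds these factors, were more numerous per cell on chips 1 and 2 only. Granule genes were then still fewer per cell on all 3 chips. With all cells, 0 of 10576 genes (0%) passed a Benjamini-Hochberg adjusted p of 0.05 by edgeR's quasi-likelihood test with the chip as a block. The smallest adjusted p was 0.882. At an unadjusted p under 0.05 the same test gave 425 genes (4.02%), with 1.88% higher and 2.14% lower. DESeq2 called 334 of 10370 genes (3.22%), with 1.3% of genes higher and 1.92% lower. Limma-trend on the mean log2(CPM+1) of the cells called 180 of 10576 genes (1.7%), with 14 genes (0.132%) higher and 1.57% lower. DESeq2 and limma-trend shared 27 calls, 13 higher and 14 lower. Because the main test called no gene, genes are described below by their values and by the number of chips that share a direction. Medians of lists below stayed the same with genes at 0 on 1 side put at the bound of 3 reads. A gene nearly absent on 1 side passed the expression filter through the other side, so its direction was largely set by the filter. Counts and medians of lists below include such genes and describe the lists without testing them. Over all genes tested, 10.5% were higher and 16.4% were lower in Id2-positive cells on all 3 chips, and the median log2 fold change was -0.19. Calls and counts of list members below are to be read beside the shares of all genes given here. The share of all genes without overlap between the chip values of the groups was not computed. Lack of overlap is given below as a description, and genes picked by a small p lack it more readily.

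Of the 24 innate lymphoid and NK genes listed, 14 could be tested. In Id2-positive cells 10 of them were higher on all 3 chips and 1 was lower, against 10.5% and 16.4% of all genes. Their median log2 fold change was 3.12, against -0.19 for all genes. Of the 14 genes, Rora, Zbtb16, Tcf7 and Il2rb were at or near 0 CPM in at least 2 Id2-negative sums. Rora, Zbtb16 and Tcf7 passed the filter through the Id2-positive sums. On chip 3 Il2rb stood at 0.0604 CPM in the Id2-positive and 0.0464 CPM in the Id2-negative sum. Icos and Pdcd1 were each detected in 5 Id2-positive and 2 Id2-negative cells. The counts and the median of this list are therefore a description. The 10 were Zbtb16, Tox, Nfil3, Gata3, Tcf7, Rora, Il2rb, Il18r1, Icos and Pdcd1, and DESeq2 called all of these but Il2rb and Pdcd1. Il12rb2, a subunit of the interleukin 12 receptor, was detected in 0 Id2-positive cells, where a count of 0 leaves room for up to 5.36%, and in 8 (7.84%) Id2-negative cells.

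Gata3 encodes a zinc finger factor that T cells and innate lymphoid cells need. It stood at 65.3, 229 and 305 CPM in the Id2-positive sums of chips 1, 2 and 3, against 13.4, 11.3 and 35.5 CPM in the Id2-negative sums. All 3 Id2-positive values lay above all 3 Id2-negative values (log2 fold change 3.24 ± 0.64, SE). The gene was detected in 9 (16.1%) Id2-positive and 7 (6.86%) Id2-negative cells, so the sums rest on few cells.

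Tcf7 encodes TCF-1, a factor of early T cell and innate lymphoid precursors. Its level was 555, 302 and 574 CPM in the Id2-positive sums and 169.9, 0.131 and 0 CPM in the Id2-negative sums. The groups did not overlap, and the Id2-negative transcript came from 3 cells of chip 1. Tcf7 was detected in 11 (19.6%) Id2-positive and 3 (2.94%) Id2-negative cells. Over the pooled reads of each side the ratio was 6.87. Tcf7 was called by DESeq2 (adjusted p = 0.0012) and by limma-trend (adjusted p = 0.0093), and not by edgeR (adjusted p = 0.9986). Because Tcf7 passed the filter through the Id2-positive sums, these calls are a description.

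Zbtb16 encodes PLZF, a factor used to mark innate lymphoid precursors. It stood at 76.5, 209.8 and 126.6 CPM in the Id2-positive sums, against 5.9, 0 and 0 CPM in the Id2-negative sums. The ratio over the pooled reads was 50.6. Zbtb16 was detected in 6 Id2-positive and 2 Id2-negative cells.

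Rora encodes the nuclear receptor ROR-alpha, which group 2 innate lymphoid cells need. Its level was 34.7, 8.93 and 14.8 CPM in the Id2-positive sums, and no read was found in the Id2-negative sums of any chip. Rora was detected in 5 (8.93%) Id2-positive and 0 Id2-negative cells, where a count of 0 leaves room for up to 2.94%. Intervals and limits from a count of 0 cover counting error only, since these reads carry no molecular identifiers.

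Tox encodes a nuclear protein required for NK and innate lymphoid cell development. Its level was 397, 392 and 324 CPM in the Id2-positive sums and 123.9, 87.9 and 6.41 CPM in the Id2-negative sums, without overlap (log2 fold change 3.01 ± 0.87). It was detected in 16 Id2-positive and 15 Id2-negative cells. Nfil3, a factor upstream of Id2 in NK cell development, stood at 40.9, 293 and 76.7 CPM in Id2-positive and 7.54, 12 and 23.5 CPM in Id2-negative sums (log2 fold change 2.88 ± 0.86). Its 3 Id2-positive values also lay above all Id2-negative ones, and it was detected in 8 Id2-positive and 7 Id2-negative cells.

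The receptor genes Il18r1, Il7r and Ccr9 were also higher on all 3 chips. Il18r1, a chain of the interleukin 18 receptor, was at 118.7, 132.96 and 246 CPM in Id2-positive and 6.19, 83.3 and 48 CPM in Id2-negative sums (log2 fold change 2.42 ± 0.85). Il7r, the interleukin 7 receptor, was at 691, 279.6 and 309.7 CPM in Id2-positive and 29.3, 230.3 and 0.325 CPM in Id2-negative sums (log2 fold change 4.60 ± 2.03). Il7r barely differed on chip 2 and was detected in 11 Id2-positive and 14 Id2-negative cells. Both rest on few cells: without the cells that hold 2 or more of Tcf7, Gata3, Zbtb16 and Rora, the log2 fold change was -1.26 for Il18r1 and 0.12 for Il7r. Ccr9, a homing receptor for gut and thymus, was at 58.4, 16.1 and 93.8 CPM in Id2-positive and 0.0576, 0.0979 and 2.79 CPM in Id2-negative sums, from 5 Id2-positive and 1 Id2-negative cells. Several defining genes of mature innate cells were rare: Eomes and Tbx21 were each detected in 2 Id2-positive and 0 Id2-negative cells, Gzmb and Klrb1c each in 1 Id2-positive and 0 Id2-negative cells, and Cxcr6 in none of either. Klrd1 and Nkg7, an NK receptor subunit and a granule membrane protein, did not keep 1 direction over the chips, with Nkg7 in 29 (51.8%) Id2-positive and 49 (48%) Id2-negative cells.

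Of 16 T-lineage genes 6 could be tested, and Lck, Thy1, Cd7 and Trat1 were higher in Id2-positive cells on all 3 chips, against 10.5% of all genes. The other tested genes, Cd247 and Lat, had log2 fold changes of -3.74 and -0.89 without 1 direction on all chips. Cd247 was detected in 1 Id2-positive and 6 Id2-negative cells, and Lat in 6 and 13. Thy1 rests on few cells, with 3 Id2-positive and 0 Id2-negative cells. Cd7, a surface protein of lymphoid progenitors, T cells and NK cells, was at 154.6, 137.1 and 212.5 CPM in Id2-positive sums and 60.7, 38.2 and 28.9 CPM in Id2-negative sums (log2 fold change 2.02 ± 0.57). Cd7 was among the more widespread of these genes, detected in 23 (41.1%) Id2-positive and 14 (13.7%) Id2-negative cells, and was called by DESeq2 (adjusted p = 0.013) and limma-trend (adjusted p = 0.014). Lck, a kinase of T and NK cell receptors, was at 382, 341 and 145.4 CPM in Id2-positive and 235, 138.3 and 110.8 CPM in Id2-negative sums (log2 fold change 0.80 ± 0.34). The Lck values overlapped between groups. Trat1, an adaptor of the T cell receptor, was at 106.7, 82.5 and 52.8 CPM in Id2-positive sums and had no read on the Id2-negative side. It was detected in 5 Id2-positive cells and passed the filter through the Id2-positive sums. Defining T cell genes were rare, with Cd3d in 1 Id2-positive and 1 Id2-negative cell, and Cd3g and the T cell factor gene Bcl11b each in 1 Id2-positive and 0 Id2-negative cells.

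**Figure D1:**
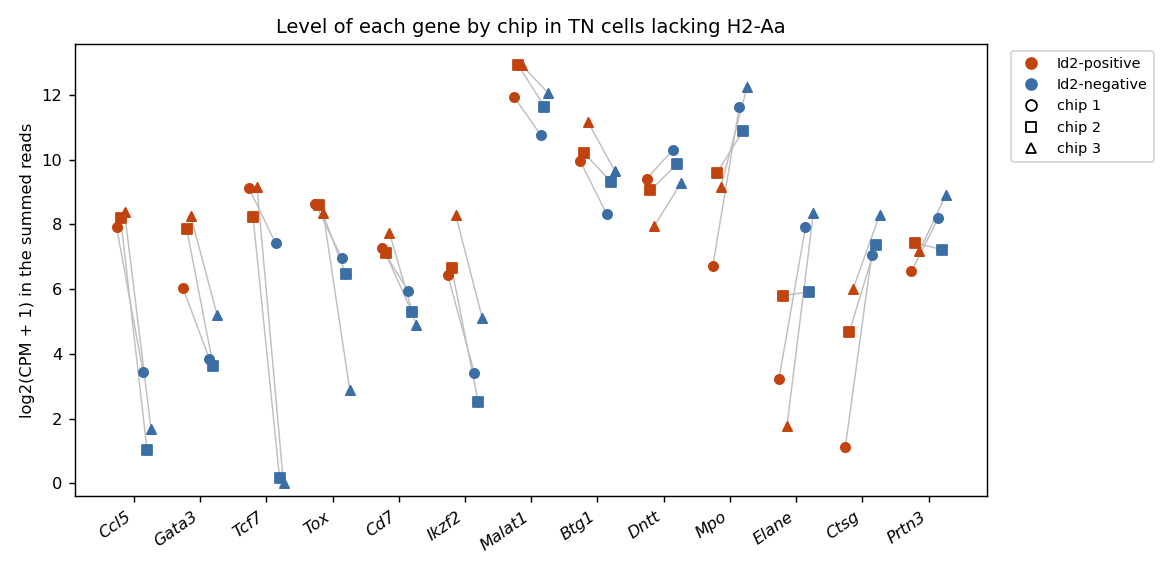
Level of 13 genes in the summed reads of TN cells lacking H2-Aa, as log2(CPM + 1), with Id2-positive sums (left, red) joined to the Id2-negative sum (right, blue) of the same chip. Ccl5, Gata3, Tcf7, Tox, Cd7, Ikzf2, Malat1 and Btg1 were higher on the Id2-positive side of every chip, Dntt, Mpo, Elane and Ctsg were lower, and Prtn3 went both ways.

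Among higher genes with a log2 fold change of at least 1, 1 direction on all 3 chips and detection in 20% of Id2-positive cells, Malat1 and Ccl5 had the smallest p-values. Ccl5 encodes a chemokine that memory T cells and NK cells release. It stood at 239.7, 296 and 332 CPM in Id2-positive sums, against 9.79, 1.04 and 2.23 CPM in Id2-negative sums (log2 fold change 6.69 ± 0.93). Ccl5 was detected in 13 (23.2%) Id2-positive cells and in 4 (3.92%) Id2-negative cells. Ikzf2 encodes Helios, an Ikaros family zinc finger protein, and stood at 85.6, 99.2 and 312 CPM in Id2-positive and 9.7, 4.67 and 33.7 CPM in Id2-negative sums (log2 fold change 3.58 ± 0.64). Ikzf3 encodes Aiolos of the same family. It was at 91.8, 171.6 and 81.7 CPM in Id2-positive sums and without a read in Id2-negative ones, from 5 Id2-positive and 0 Id2-negative cells.

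Malat1, an abundant nuclear long noncoding RNA, stood at 3931, 7801 and 7719 CPM in Id2-positive sums and 1753, 3200.2 and 4249.6 CPM in Id2-negative sums. It was higher on each chip (log2 fold change 1.10 ± 0.13) and was called by DESeq2 (adjusted p = 0.00012) and limma-trend (adjusted p = 0.0042). Btg1 and Btg2 encode related proteins that slow cell division. Btg1 was at 992, 1181 and 2282 CPM in Id2-positive and 318, 638 and 808 CPM in Id2-negative sums (log2 fold change 1.34 ± 0.22), without overlap. Btg2 was at 2112, 1844 and 1553 CPM in Id2-positive and 916, 792 and 1071 CPM in Id2-negative sums (log2 fold change 0.99 ± 0.21), again without overlap. Btg1 was detected in 53 (94.6%) Id2-positive and 92 (90.2%) Id2-negative cells.

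Tsc22d3 encodes GILZ, a leucine zipper protein induced by glucocorticoids. Its level was 375, 216 and 599 CPM in Id2-positive and 79.9, 69.7 and 211.6 CPM in Id2-negative sums (log2 fold change 1.79 ± 0.33). Arhgap15, a GTPase-activating protein for Rac, was at 589, 307 and 491 CPM in Id2-positive and 180.95, 130.9 and 146.5 CPM in Id2-negative sums (log2 fold change 1.56 ± 0.29). Dock2, an activator of Rac in leukocyte migration, had a log2 fold change of 1.52 ± 0.32. Ets1, a factor that NK cells and T cells use, was at 378, 399.6 and 73.8 CPM in Id2-positive and 43.4, 100.7 and 23.8 CPM in Id2-negative sums (log2 fold change 2.24 ± 0.46), and its values overlapped. The Ets1 difference was -3.28 without cells with H2-Ab1, H2-Eb1 or Cd74 and -0.13 without cells with 2 or more of Tcf7, Gata3, Zbtb16 and Rora. The other genes of this kind had log2 fold changes of 4.32 ± 0.83 for Marchf2, a membrane ubiquitin ligase, 1.86 ± 0.36 for Inpp5k, an inositol phosphatase, 1.06 ± 0.21 for Ctr9, a subunit of the Paf1 complex, and 1.87 ± 0.39 for Ankrd12, an ankyrin repeat protein.

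Of 15 myeloid granule genes 13 could be tested. In Id2-positive cells 8 of them were lower on all 3 chips and none was higher, against 16.4% and 10.5% of all genes, and their median log2 fold change was -1.76. The 8 were Mpo, Elane, Ctsg, Ms4a3, Calr, Gstm1, Cst7 and Plac8. DESeq2 called Elane, Ctsg and Ms4a3 lower, and limma-trend called Mpo, Ctsg, Calr, Cst7 and Plac8 lower.

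Mpo encodes myeloperoxidase, the peroxidase of primary granules. It stood at 103.7, 769.6 and 566 CPM in Id2-positive sums, against 3147, 1907 and 4906 CPM in Id2-negative sums. The 3 Id2-positive values lay below all Id2-negative values (log2 fold change -3.11 ± 0.69), and limma-trend gave an adjusted p of 0.0020 while DESeq2 gave 0.12. Mpo was detected in 12 (21.4%) Id2-positive and 51 (50%) Id2-negative cells.

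Ctsg and Elane encode cathepsin G and neutrophil elastase, serine proteases of the same granules. Ctsg was at 1.17, 24.4 and 63.8 CPM in Id2-positive and 132.2, 163.1 and 314 CPM in Id2-negative sums (log2 fold change -3.70 ± 1.06), without overlap and from 5 Id2-positive and 31 Id2-negative cells. Elane was at 8.41, 54.9 and 2.42 CPM in Id2-positive and 241, 59.3 and 329 CPM in Id2-negative sums (log2 fold change -4.34 ± 1.68), and hardly differed on chip 2. Prtn3, proteinase 3, was at 92.8, 171.1 and 143.5 CPM in Id2-positive and 290.0, 148.5 and 484 CPM in Id2-negative sums (log2 fold change -1.08 ± 0.50) and was higher on chip 2. Prtn3 was the most widespread of these proteases among Id2-positive cells, in 20 (35.7%) of them, against 50 (49%) Id2-negative cells. Cst7, cystatin F, was detected in 25 (44.6%) Id2-positive and 72 (70.6%) Id2-negative cells, and Calr, calreticulin, in 43 (76.8%) Id2-positive and 94 (92.2%) Id2-negative cells.

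Of 16 monocyte and macrophage genes tested, 3 were higher and 2 lower on all 3 chips, with a median log2 fold change of 0.04. Csf1r, the receptor for macrophage colony-stimulating factor, was detected in 22 (39.3%) Id2-positive and 35 (34.3%) Id2-negative cells. The myeloid factor genes Spi1 and Cebpa were each detected in 6 (10.7%) Id2-positive cells, and in 24 (23.5%) and 19 (18.6%) Id2-negative cells. Ccr2, a chemokine receptor of monocytes and dendritic precursors, was at 299, 558 and 299.9 CPM in Id2-positive and 195.98, 149.4 and 207.3 CPM in Id2-negative sums (log2 fold change 1.01 ± 0.38).

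**Figure D2:**
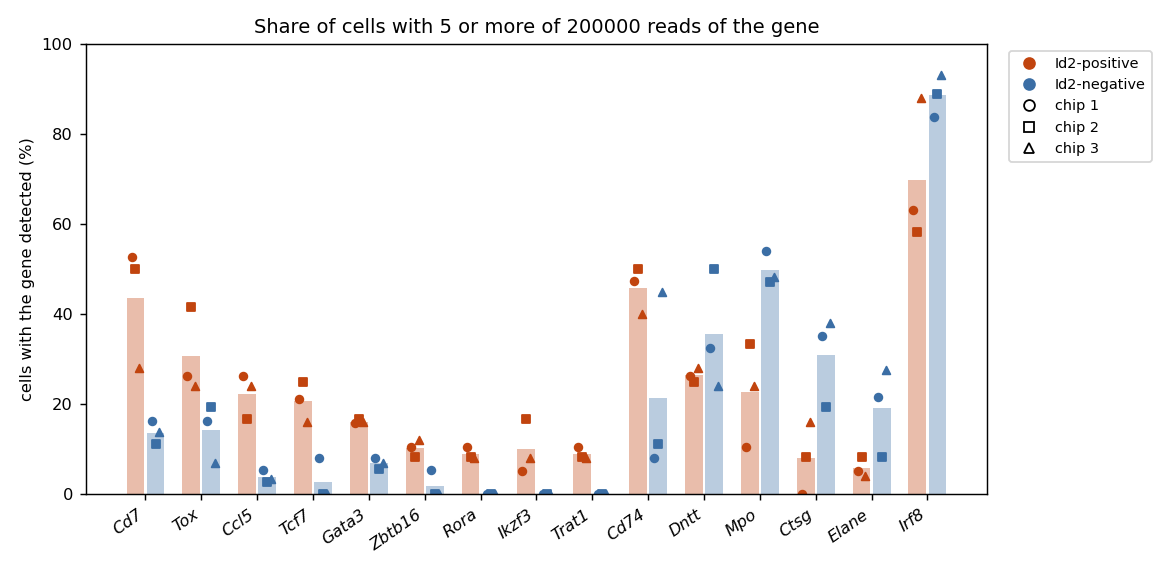
Share of cells in which 15 genes were detected, at 5 or more reads after each cell had been thinned to 200000 reads, for Id2-positive (left bar of each pair) and Id2-negative cells (right bar). Bars are means of the 3 chips and symbols the chips. Rora, Ikzf3 and Trat1 have no Id2-negative cell, and the granule genes have lower Id2-positive bars.

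Among 16 early lymphoid genes, all tested, 6 were higher (Il7r, Ccr9, Ets1, Ikzf3, Tespa1 and Cd27) and 2 lower (Dntt and Ikzf1) in Id2-positive cells on all 3 chips. Dntt encodes terminal transferase, which adds nucleotides at antigen receptor joints. It stood at 680.3, 531 and 248 CPM in Id2-positive sums and 1259.9, 933 and 620.1 CPM in Id2-negative sums (log2 fold change -1.01 ± 0.22). The chip values overlapped between groups, and each chip was lower on the Id2-positive side. Dntt was detected in 15 (26.8%) Id2-positive and 37 (36.3%) Id2-negative cells, with chip shares of 26.3%, 25% and 28% for Id2-positive and 32.4%, 50% and 24.1% for Id2-negative cells, so on chip 3 the share went the other way. Rag1, the recombinase, was detected in 2 Id2-positive and 1 Id2-negative cells. Notch1, a receptor that starts T cell development, was found in 19 (33.9%) Id2-positive and 52 (51%) Id2-negative cells, and Flt3, the receptor for Flt3 ligand, in 28 (50%) Id2-positive and 72 (70.6%) Id2-negative cells, with neither keeping 1 direction in the sums.

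B-lineage genes were found in few cells on both sides. Of 8 tested, none was higher or lower on all 3 chips, and Ebf1, the factor that starts the B cell program, was detected in 2 Id2-positive and 3 Id2-negative cells. Vpreb1 and Vpreb2 of the surrogate light chain were each detected in 0 Id2-positive and 3 Id2-negative cells. Vpreb3 was detected in 0 Id2-positive and 4 Id2-negative cells.

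Because Id2 acts through E proteins, the sequence upstream of genes of each direction is shown, with E-box letters CANNTG in capitals. The windows are the 250 bases before the start of Gata3, which was higher, and of Mpo and Dntt, which were lower, from RefSeq on GRCm38.p6 and read 5′ to 3′ on the gene's strand. Gata3 lies on the minus strand at chr2:9878601-9878850, Mpo on the plus strand at chr11:87793534-87793783 and Dntt on the plus strand at chr19:41029025-41029274.
Gata3: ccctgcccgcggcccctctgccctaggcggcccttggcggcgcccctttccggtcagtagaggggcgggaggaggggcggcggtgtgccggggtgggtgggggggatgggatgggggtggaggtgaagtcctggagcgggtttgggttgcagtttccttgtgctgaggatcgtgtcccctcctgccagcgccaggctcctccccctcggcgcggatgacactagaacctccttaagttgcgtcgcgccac
Mpo: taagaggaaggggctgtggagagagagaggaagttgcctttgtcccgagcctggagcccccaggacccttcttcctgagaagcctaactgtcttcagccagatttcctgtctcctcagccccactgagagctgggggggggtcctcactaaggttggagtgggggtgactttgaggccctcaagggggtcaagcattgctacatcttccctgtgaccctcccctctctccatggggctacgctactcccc
Dntt: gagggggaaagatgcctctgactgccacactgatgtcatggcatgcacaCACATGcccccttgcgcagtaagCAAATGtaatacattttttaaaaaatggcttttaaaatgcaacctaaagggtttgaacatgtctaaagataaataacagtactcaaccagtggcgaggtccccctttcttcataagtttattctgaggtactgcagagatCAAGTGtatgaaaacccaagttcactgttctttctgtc
Dntt holds 3 matches and the windows of Gata3 and Mpo hold 0. The motif reads the same on both strands, and 66.2% of 32851 promoter windows of this length hold at least 1. A match is a run of letters and not a measured binding site.

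The E protein genes themselves were expressed on both sides. Tcf4 was the most widespread, in 47 (83.9%) Id2-positive and 93 (91.2%) Id2-negative cells, at 368, 548 and 628 CPM in Id2-positive and 320.4, 439 and 565 CPM in Id2-negative sums (log2 fold change 0.22 ± 0.23). Tcf12 was at 25.5, 9.96 and 46.7 CPM in Id2-positive and 66.2, 56.7 and 58.9 CPM in Id2-negative sums (log2 fold change -1.40 ± 0.93), and was detected in 8 (14.3%) Id2-positive and 30 (29.4%) Id2-negative cells. Tcf3 was detected in 8 Id2-positive and 23 Id2-negative cells and went both ways over the chips. Of the other Id genes, Id3 was detected in 20 (35.7%) Id2-positive and 26 (25.5%) Id2-negative cells, and Id1 in 5 Id2-positive and 8 Id2-negative cells. Hhex and Zeb2, factors of lymphoid and dendritic progenitors, were lower on all 3 chips and were called lower by limma-trend. Hhex was detected in 17 (30.4%) Id2-positive and 62 (60.8%) Id2-negative cells and Zeb2 in 23 (41.1%) Id2-positive and 64 (62.7%) Id2-negative cells.

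Although H2-Aa had been excluded, other MHC class II genes remained measurable. Of 9 tested, 5 were higher in Id2-positive cells on all 3 chips (H2-Eb1, H2-DMa, H2-DMb2, H2-Oa and Cd74) and none was lower. Cd74, the invariant chain that escorts class II molecules, was at 129.8, 100.2 and 117.97 CPM in Id2-positive and 8.12, 19 and 83.7 CPM in Id2-negative sums (log2 fold change 2.31 ± 0.92), without overlap. It was detected in 25 (44.6%) Id2-positive and 20 (19.6%) Id2-negative cells, and in 45 of the 55 cells set aside for H2-Aa. On chip 3 the shares were 40% in Id2-positive and 44.8% in Id2-negative cells, so the share was higher on chips 1 and 2 only. H2-Eb1, a beta chain, was detected in 4 Id2-positive and 4 Id2-negative cells, against 33 of 55 cells with H2-Aa. Ciita, the class II transactivator, was detected in 3 Id2-positive and 1 Id2-negative cells, against 14 of 55 cells with H2-Aa.

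Conventional dendritic genes other than these did not separate the sides on every chip. Of 12 tested, Ccr2 alone was higher on all 3 chips and none was lower. Batf3, a factor that some conventional dendritic cells need, was detected in 5 Id2-positive cells, 4 of them on chip 1, and in 1 Id2-negative cell, against 22 of the 55 cells with H2-Aa. Clec9a, a receptor of these dendritic cells, was detected in 10 Id2-positive and 3 Id2-negative cells, and Zbtb46 in 0 Id2-positive and 1 Id2-negative cells. Irf8, a factor of dendritic and monocyte progenitors, stood at 1317, 694 and 1403 CPM in Id2-positive and 917, 1184 and 1313 CPM in Id2-negative sums. Its shares of cells were 63.2%, 58.3% and 88% in Id2-positive and 83.8%, 88.9% and 93.1% in Id2-negative cells, and limma-trend on cell means called it lower (difference of mean log2(CPM+1) -1.69, adjusted p = 0.0089). Among plasmacytoid dendritic genes, 3 of 16 were higher on all 3 chips (Tcf4, Irf7 and Ccr9) and none was lower, and Siglech was detected in 5 Id2-positive and 10 Id2-negative cells.

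Of 12 stem and multipotent genes tested, Hoxa9, Meis1, Gata2, Adgrl4 and Tal1 were lower and Sox4 higher on all 3 chips, with a median log2 fold change of -0.60. Gata2 and Tal1, factors of stem cells and of mast and red cell progenitors, were each detected in 0 Id2-positive cells and in 8 (7.84%) and 7 (6.86%) Id2-negative cells. Cd34, a surface glycoprotein of progenitors, was at 247, 739 and 267 CPM in Id2-positive and 435, 470.2 and 591 CPM in Id2-negative sums (log2 fold change -0.45 ± 0.40). Kit, the stem cell factor receptor, was detected in 18 (32.1%) Id2-positive and 39 (38.2%) Id2-negative cells.

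Genes of the G1/S transition were detected less often in Id2-positive cells. At equal depth a cell held on average 9.84, 9.17 and 10.5 of the 20 listed genes on the Id2-positive side of chips 1 to 3, and 13, 12.8 and 13 on the Id2-negative side. The difference was -3.13 ± 0.56 genes (SD over 3 chips, exact sign-flip test, two-sided p = 0.25, the smallest that 3 chips allow). Mcm3, a subunit of the replicative helicase, was detected in 38 (67.9%) Id2-positive and 92 (90.2%) Id2-negative cells, and Mcm2, another, in 26 Id2-positive and 73 Id2-negative cells. Uhrf1, a maintenance factor of DNA methylation, was detected in 40 Id2-positive and 89 Id2-negative cells. Limma-trend called Mcm2, Mcm3, Mcm4, Mcm6, Mcm7, Uhrf1 and Chaf1b lower, against 1.57% of all genes called lower and 0.132% higher. In the sums 7 of the 20 genes were lower on all 3 chips, against 16.4% of all genes. Rrm2 was higher on all 3 chips, and the log2 fold change of Mcm3 was 0.01. Genes of G2/M differed less: cells held 7.42, 7.92 and 6.52 of 20 on the Id2-positive side and 6.78, 7.14 and 8.90 on the Id2-negative side. Mki67, a marker of cycling cells, was detected in 35 (62.5%) Id2-positive and 72 (70.6%) Id2-negative cells. Its level was 960, 905 and 603 CPM in Id2-positive and 486, 502 and 643 CPM in Id2-negative sums, so it was higher on chips 1 and 2 only. Of the 20 G2/M genes, 4 were higher on all 3 chips (Ccna2, Aurkb, Plk1 and Nusap1) and 0 were lower, against 10.5% and 16.4% of all genes.

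Id2-positive cells also had fewer detected genes. After thinning to 200000 reads, the mean was 2469, 2498 and 2367 genes on the Id2-positive side of the 3 chips and 2910, 2821 and 2728 on the Id2-negative side. The difference of -375 ± 60 genes (SD, 3 chips; exact sign-flip test, two-sided p = 0.25) was close to that without thinning, -364 genes. Depth did not run with it on every chip, at 765946, 851479 and 699119 reads per Id2-positive cell and 880870, 802366 and 768682 reads per Id2-negative cell. Taken per 1000 detected genes, G1/S genes numbered 3.73, 3.74 and 4.14 in Id2-positive and 4.34, 4.48 and 4.92 in Id2-negative cells. Per 1000 detected genes, granule genes numbered 1.72, 1.64 and 2.00 in Id2-positive and 2.10, 1.85 and 2.30 in Id2-negative cells, and stem genes 1.193, 1.38 and 1.22 in Id2-positive and 1.31, 1.42 and 1.42 in Id2-negative cells. E protein and Id genes did not keep 1 direction on this scale, with 1.18, 1.06 and 1.13 in Id2-positive and 1.11, 1.34 and 1.33 in Id2-negative cells. The part of gene number in the lower shares was not tested beyond these ratios.

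**Figure D3:**
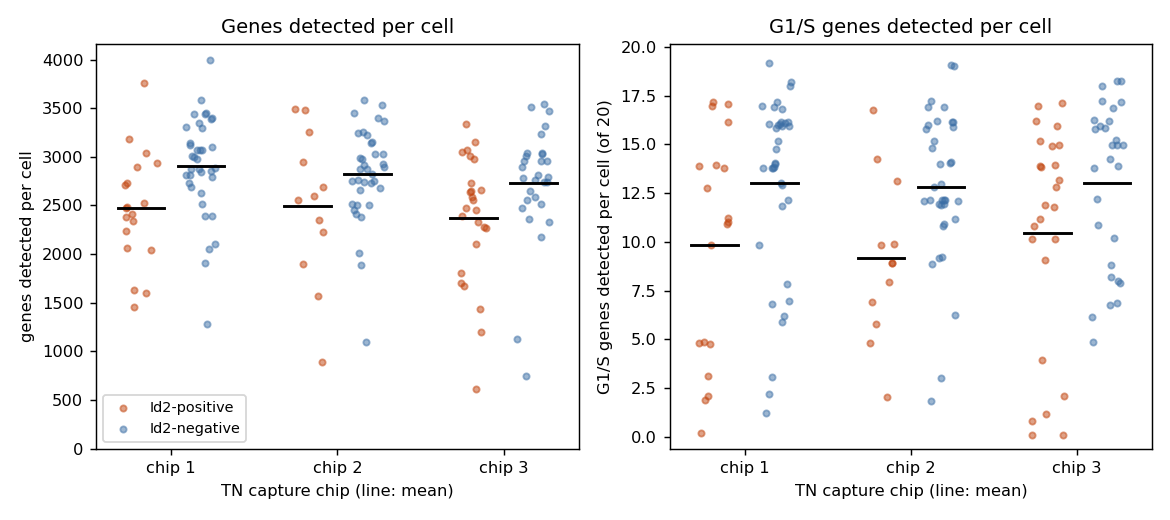
Genes detected per cell (left) and G1/S genes detected per cell of 20 listed (right), each cell thinned to 200000 reads, with 1 point per cell and a line at the chip mean. Id2-positive means lie below Id2-negative means on every chip, and some Id2-positive cells hold fewer than 5 G1/S genes.

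Innate lymphoid, T-lineage and granule genes each differed in 1 direction per cell on all chips. Id2-positive cells held 2.68, 3.08 and 2.16 innate lymphoid and NK genes on average, against 1.51, 1.39 and 1.14 in Id2-negative cells (difference 1.30 ± 0.35). T-lineage genes numbered 1.42, 1.58 and 0.92 in Id2-positive and 0.70, 0.72 and 0.48 in Id2-negative cells (difference 0.67 ± 0.22). Granule genes numbered 4.32, 4.08 and 4.60 in Id2-positive and 6.19, 5.33 and 6.21 in Id2-negative cells (difference -1.58 ± 0.31). Each of these had an exact two-sided p of 0.25, the smallest possible with 3 chips. The 55 cells with H2-Aa, for comparison, held 2.18 innate lymphoid and 3.52 granule genes on average. Early lymphoid genes went both ways, with 4.74, 5.83 and 5.00 in Id2-positive and 5.76, 6.64 and 4.72 in Id2-negative cells.

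**Figure D4:**
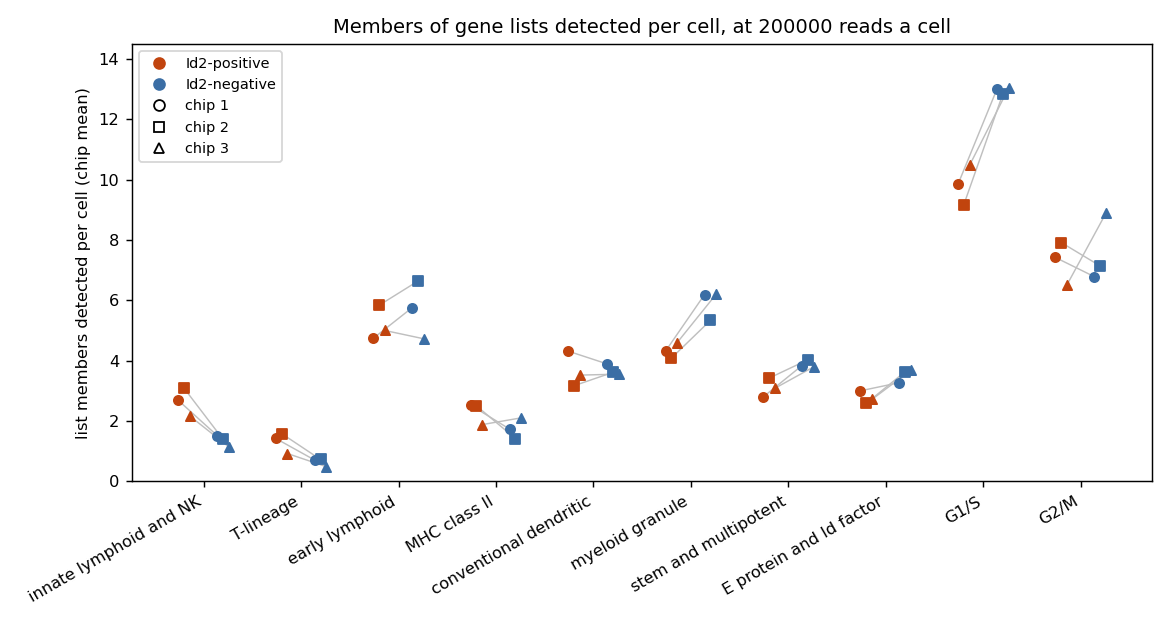
Mean number of members of 10 gene lists detected per cell on each chip, with Id2-positive values (left, red) joined to Id2-negative values (right, blue) of the same chip. Innate lymphoid and T-lineage genes are more numerous, and granule, stem, E protein and G1/S genes less numerous, on the Id2-positive side of all 3 chips; per 1000 detected genes the E protein list was higher on chip 1.

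The 4 innate lymphoid factors were found together in few cells. Of 56 Id2-positive cells 9 held 2 or more of Tcf7, Gata3, Zbtb16 and Rora (16.1%, exact Clopper-Pearson 95% interval 7.62% to 28.3%), 3 of them on chip 1, 1 on chip 2 and 5 on chip 3. Among Id2-negative cells, 3 did so (2.94%, 0.611% to 8.36%), all on chip 1, and among the 55 TN cells set aside for H2-Aa 7 did so (12.7%, 5.27% to 24.5%). At least 3 of these 4 factors were found in 6 Id2-positive and 0 Id2-negative cells. These 4 factors were chosen after values of these cells had been seen, so the counts and intervals describe the cells and are not tested. The intervals pool cells over chips and leave out the spread between chips.

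The 9 Id2-positive cells shared more than the 4 factors. Ccl5 was detected in 9 of 9 of them, in 4 of the other 47 Id2-positive cells and in 4 (3.92%) Id2-negative cells. Tox was found in 8 of 9 and 8 of 47 Id2-positive cells and in 15 (14.7%) Id2-negative cells, and Il7r in 6 of 9, 5 of 47 and 14 (13.7%) cells of these same groups. Trat1 was found in 5 of 9 and 0 of 47 Id2-positive cells and in 0 Id2-negative cells. Ikzf2 was found in 6 of 9 and 7 of 47 Id2-positive and 10 (9.8%) Id2-negative cells, and Lck in 4 of 9 and 18 of 47 Id2-positive and 31 (30.4%) Id2-negative cells. Cd7 was spread more widely, in 4 of 9 and 19 of 47 Id2-positive cells and 14 (13.7%) Id2-negative cells. Prtn3, Elane, Ctsg and Csf1r were each detected in 0 of the 9 cells, where a count of 0 leaves room for up to 33.3%, and Mpo and Dntt in 1 each. Cst3, cystatin C, a gene expressed strongly by dendritic and myeloid cells, was in 4 of 9 and 43 of 47 Id2-positive and 92 (90.2%) Id2-negative cells.

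The 9 cells held a median of 1631 genes at a median depth of 652491 reads, against 2592 genes and 770108 reads in the other 47. Without the cells with 2 or more factors on either side, Id2-positive cells still held more T-lineage genes on all 3 chips (1.12, 1.64 and 0.65, against 0.676, 0.722 and 0.483 in Id2-negative cells). Innate lymphoid genes, a list that holds the 4 factors used to remove the cells, were then more numerous on chips 1 and 2 alone (1.81, 2.55 and 0.95 in Id2-positive, against 1.21, 1.39 and 1.14 in Id2-negative cells). Granule genes then numbered 4.69, 4.36 and 4.95 in Id2-positive and 6.50, 5.33 and 6.21 in Id2-negative cells, and G1/S genes 11.2, 9.82 and 12.8 in Id2-positive and 13.9, 12.8 and 13 in Id2-negative cells. All detected genes numbered 2639, 2582 and 2555 in Id2-positive and 3007, 2821 and 2728 in Id2-negative cells, so each of these was still lower on the Id2-positive side of each chip. In the sums without these cells, the log2 fold change of Ets1 was -0.13, of Il18r1 -1.26 and of Il7r 0.12, while Ccl5 was at 5.54, Tox at 1.44, Cd7 at 1.92, Malat1 at 0.97 and Mpo at -2.92. That of Gata3 was -3.58, but Gata3 is one of the factors by which the cells were removed.

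Granule genes and Dntt were found mainly outside these 9 cells. Of all 56 Id2-positive cells, 28 held at least 1 of Mpo, Prtn3, Elane and Ctsg, against 66 (64.7%) Id2-negative cells, and the shares by chip were 47.4%, 50% and 52% for Id2-positive and 70.3%, 58.3% and 65.5% for Id2-negative cells. Dntt and a granule gene stood together in 5 (8.93%) Id2-positive and 17 (16.7%) Id2-negative cells. At least 1 of the 4 factors and a granule gene stood together in 3 Id2-positive and 4 Id2-negative cells. None of the 4 factors, the granule genes or Dntt was found in 9 (16.1%) Id2-positive and 15 (14.7%) Id2-negative cells. Cd74 and at least 1 of the factors stood together in 5 Id2-positive and 0 Id2-negative cells.

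**Figure D5:**
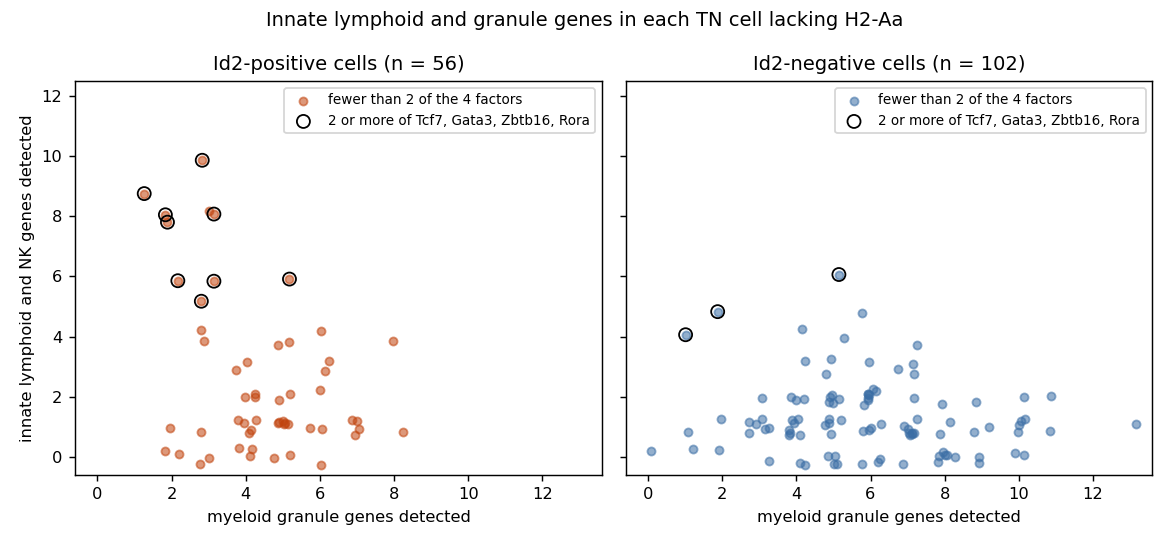
Innate lymphoid and NK genes against myeloid granule genes detected in each cell, for Id2-positive (left) and Id2-negative cells (right), with points spread slightly to show ties. Circles mark cells with 2 or more of Tcf7, Gata3, Zbtb16 and Rora. These 4 factors belong to the innate lymphoid list, so circled cells hold at least 2 members by choice. The 9 circled Id2-positive cells hold from 5 to 10 innate lymphoid genes and the 3 circled Id2-negative cells 6, 5 and 4.

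Among lower genes with a log2 fold change of at least 1 in size, 1 direction on all 3 chips and detection in 20% of Id2-negative cells, those with the smallest p-values besides Mpo and Dntt were Eftud2, Prpf8, Tpp1, Tmem175, Heatr1, Zfp35, Utp4, Ubr7, Ppat and Nudcd1. Eftud2, a GTPase of the spliceosome, was at 89.2, 68.5 and 53.3 CPM in Id2-positive and 289.9, 299.6 and 279 CPM in Id2-negative sums (log2 fold change -2.07 ± 0.37). It was detected in 18 (32.1%) Id2-positive and 63 (61.8%) Id2-negative cells and was called by DESeq2 and limma-trend (adjusted p = 0.00079 and 0.0050). Prpf8, its partner in the spliceosome, was at 393, 70.3 and 175.4 CPM in Id2-positive and 655, 335 and 724 CPM in Id2-negative sums, with overlap. Heatr1 and Utp4, both needed to make the small ribosomal subunit, had log2 fold changes of -2.50 ± 0.59 and -2.69 ± 0.65, and were detected in 12 (21.4%) and 8 (14.3%) Id2-positive and in 55 (53.9%) and 41 (40.2%) Id2-negative cells.

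Tpp1, a lysosomal peptidase, was at 56.6, 75.6 and 18.3 CPM in Id2-positive and 240.1, 223 and 108.7 CPM in Id2-negative sums, and was found in 8 (14.3%) Id2-positive and 45 (44.1%) Id2-negative cells. Tmem175, a lysosomal cation channel, was at 7.72, 1.14 and 2.17 CPM in Id2-positive and 63.4, 99.8 and 117.3 CPM in Id2-negative sums, from 3 Id2-positive and 26 Id2-negative cells. Ppat, which starts purine synthesis, was at 38.2, 45.5 and 76.3 CPM in Id2-positive and 187.1, 228 and 173.99 CPM in Id2-negative sums. None of these last 3 overlapped between groups, though they were picked by a small p and 1 direction on all chips. The remaining 3 genes of this rule had log2 fold changes of -2.97 ± 0.75 for Ubr7, a ubiquitin ligase of histones, -2.54 ± 0.68 for Nudcd1, and -1.94 ± 0.47 for Zfp35, a zinc finger protein. Detection of these genes in fewer cells went along with the lower gene number of Id2-positive cells, and its part in their values was not tested.

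The same split was made in the Ly6D+ cells of the series, where Ly6D marks progenitors with B cell potential. Among Ly6D+ cells lacking H2-Aa, 50 were Id2-positive and 81 Id2-negative. In the test of the difference between the TN and the Ly6D+ contrasts, edgeR called 0 of 11628 genes (0%) with 411 (3.53%) at an unadjusted p under 0.05, and DESeq2 called 290 of 11177 (2.59%). For Ly6D+ cells alone edgeR called 0 of 10494 genes (0%), with 336 (3.2%) at an unadjusted p under 0.05. Mpo had a log2 fold change of -3.11 in TN and 2.06 in Ly6D+ cells, Gata3 3.24 and -0.29, Cd7 2.02 and -0.17, Malat1 1.10 and 0.02, and Dntt -1.01 and 0.05. None of these differences passed the edgeR test. In the Ly6D+ sums of either side, Mpo reached at most 122.7 CPM, Gata3 50.3 CPM and Cd7 35.9 CPM, so their folds there come from low levels. The median log2 fold change of the innate lymphoid genes was 3.12 in TN and 0.72 in Ly6D+ cells, and that of the granule genes -1.76 in TN and 0.05 in Ly6D+ cells. These medians are over different genes, with 14 innate lymphoid and 13 granule genes tested in TN cells and 11 and 10 in Ly6D+ cells. At least 2 of the 4 factors were found in 2 of 50 Id2-positive and 1 of 81 Id2-negative Ly6D+ cells, a granule gene in 11 Id2-positive and 7 Id2-negative cells, and Dntt in 49 Id2-positive and 74 Id2-negative cells.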

How the data were processed

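Per the labels' protocols, single cells went through Fluidigm C1 chips with SMARTer full-length cDNA and Nextera XT libraries. These carry neither molecular identifiers nor strand, so reads of overlapping genes cannot be told apart. The authors deposited raw counts of reads per gene and cell, without normalization. The submitters' processing notes name mm9 and R 3.2.0, and no aligner or counter is given in the sources used. Poor cells had been removed before deposit, per the series' design text. No further cell was removed, and doublets were not treated. Of 23427 genes, 23334 received a symbol by Entrez identifier from RefSeq (GRCm38.p6), which served for names and promoter sequences only. A column of gene lengths (1) was not used.

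CPM were computed from the deposited counts, over a cell's reads for the split and TMM-scaled in the sums. Counts were summed per chip and side and tested in R 4.3.3 with edgeR 4.0.16 (quasi-likelihood F-test, TMM, filterByExpr, Benjamini-Hochberg adjusted p under 0.05), with the chip as a block. Both sides of a chip come from 1 capture of the same pool, which is where the pairing comes from. DESeq2 1.42.0 and limma 3.58.1, limma on the mean log2(CPM+1) of the cells, were alternatives. Id2 and H2-Aa were left out of every fit and count. A standard error (SE) was taken as the size of the log2 fold change over the root of its F statistic. The replicates are the 3 chips. Which mice went on which chip is not given, so the p-values reflect chip-to-chip variation only, part of which may be technical. A gene counted as detected at 5 or more reads after thinning a cell to 200000 reads, which equals 25 CPM. The edgeR step was tested on simulated sums, at a spread between sums below that of these data.

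The members, the 23 gene lists and the tests were chosen with earlier results of these data known. Named genes were the 12 per direction with the smallest p among genes with a log2 fold change of at least 1 in size, 1 direction on all 3 chips and detection in 20% of the cells of the higher side, plus 39 fixed genes. Other genes were named after their values were seen.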

Additional observations from a re-analysis of the deposited data

How the results depend on the processing

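The count of genes called by edgeR was 0 in the comparison as described and under RLE scaling, no filter, 1 fit over both populations, thinned cells, other limits on Id2 or H2-Aa, and without cells of under 1500 genes, with other class II genes, with Mpo or Prtn3, or with 2 or more factors, the last chosen after seeing the data. It was 334 with DESeq2 and 180 with limma-trend, and the difference between TN and Ly6D+ contrasts gave 290 with DESeq2 and 0 with edgeR; the cause was not tested. Without the chip as a block (no pairing of the sides of a chip) edgeR called 0 genes, with 522 at an unadjusted p under 0.05. Leaving out each chip gave from 0 to 0 genes in either comparison. Of 42 named genes followed through the alternatives, 37 kept their sign under all 17 alternatives that could fit them. The 42 include the 12 genes per direction picked by a small p and 1 direction on all 3 chips. Genes picked in this way keep their sign more readily, so this count is a description. Genes not among the 42 include Tcf7, Zbtb16, Rora, Irf8 and Mcm3. Tcf4 was -0.46 with limma-trend and Tcf12 0.078 with no H2-Aa limit. Ets1 was -3.28 without cells with H2-Ab1, H2-Eb1 or Cd74, and without cells with 2 or more factors Ets1 was -0.13, Il18r1 -1.26 and Gata3, itself used to remove those cells, -3.58. Elane ranged from -9.54 to -1.18 and Il7r from 0.12 to 6.94 on the log2 scale, and Malat1 from 0.82 to 1.41. The common biological coefficient of variation between sums was 0.985 over 3 chips. Genes without a read on 1 side are not shown to be unexpressed there.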

Other observations

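Immediate-early genes, which respond to stimulation and to handling, were higher in the Id2-positive sums for 6 of 17 tested (Fos, Fosb, Junb, Klf6, Zfp36 and Btg2) on all 3 chips and lower for none. Fos, a subunit of the AP-1 factor, was detected in 53 (94.6%) Id2-positive and 85 (83.3%) Id2-negative cells, and Dusp2, a phosphatase, in 23 Id2-positive and 62 Id2-negative cells. Per cell the list went both ways over the chips, with 8.26, 8 and 7.76 members on the Id2-positive side and 8.08, 8.42 and 8.10 on the Id2-negative side. Lysosomal cathepsin genes were fewer per Id2-positive cell on all 3 chips, with 4.89, 4.58 and 5.80 of 12, against 5.41, 5.11 and 6.55 per Id2-negative cell.

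Interferon-stimulated genes were most numerous on chip 3: cells held 1.95, 2.17 and 4.88 members on the Id2-positive side of chips 1, 2 and 3 and 2.30, 2.97 and 5 on the Id2-negative side. Integrin genes were mixed. Itgb2, the beta chain of leukocyte integrins, was detected in 22 (39.3%) Id2-positive and 24 (23.5%) Id2-negative cells, Itgb7, another beta chain, in 16 Id2-positive and 19 Id2-negative cells, and the alpha chain gene Itga4 in 31 Id2-positive and 67 Id2-negative cells. Genes of other cells that marrow could hold were rare, with a mean of 0.16, 0.17 and 0.24 megakaryocyte, erythroid, mast or basophil genes and 0.11, 0.08 and 0.04 mature neutrophil genes per Id2-positive cell, against 0.19, 0.11 and 0.14 and 0, 0 and 0.03 per Id2-negative cell.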
